A study of Mus musculus with 38 samples.

Results

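The high fat diet with 75 µg of the botanical formulation KAL-1 (HF75) was set against the high fat diet alone (HFC) in stromal vascular cells (SVCs) of mouse epididymal fat. The 12 arrays were those whose title and source name gave HF75 or HFC at weeks 3, 6, 9, 12, 15 or 18, and each HF75 array was paired with the HFC array of its week. They were 12 of the 38 one-colour Agilent arrays of the series. The other arrays held a low fat control diet (LFC), the 5 µg (HF5) and 20 µg (HF20) doses, and earlier times of LFC and HFC. All mice were C57BL/6J, put on the diets after weaning at 3 to 4 weeks of age, and the labels name no transgene or mutation. HFC was a high fat, high sucrose diet with 60% of calories from fat, HF75 was that same diet with the formulation, and LFC had 10% of calories from fat. Each diet had 30 animals, 5 of which were killed every 3 weeks, and the labels do not say how many animals went into an array. The text of the series speaks of replicates, but there was 1 array per diet and week here, so the 6 weeks stood in for replicates. The limma (linear model) p-values of HF75 against HFC or against the lower doses rest on the spread over weeks in all diets, LFC included. Those of the change with week rest on HF75 and HFC alone.

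SVCs are what remains of fat tissue once the adipocytes have been floated off, and hold stromal progenitors, vessel cells and leukocytes. In obese fat, macrophages collect around dying adipocytes, take up lipid and make cytokines such as tumour necrosis factor, and the integrin CD11c (Itgax) is a common marker of these recruited cells. The fractalkine receptor Cx3cr1 is carried by monocytes and by many resident macrophages. RNA of a cell mixture gives the product of cell number and RNA per cell, so fewer cells of a type and less RNA per cell cannot be told apart.

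Each gene was read by synthetic 60-base probes, and the first 30 bases of those on which the main values rest are shown here, 5′ to 3′, as the scanner files give them. Itgax and Cx3cr1 were lower in HF75 in each week, Mmp8 was higher in each week, and Tnf and Lep are the genes of opposite differences at weeks 9 and 12.
Itgax: tcccatctacttttgcaacgttggaattga
Cx3cr1: caagaatgtcttcatgcattcactgactcc
Mmp8: tttattctgaggagatttgggaagaatcag
Tnf: tgggctttccgaattcactggagcctcgaa
Lep: agtttggatcttgggttttctgttaagaga

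A level is the log2 of the processed signal minus the log2 of the 75th percentile of its array, so that a probe at that percentile has a level of 0. A difference is the HF75 level minus the HFC level of the same week, in log2 units. The 75th percentile of the HF75 arrays was 88.4 scanner units at week 3 and between 628 and 1400 in the other weeks, and that of the HFC arrays ran from 493 to 1588. HF75 W3 was thus the dimmest of the 12 arrays, with 46.3% of probes well above background, against 62.6% to 91.6% on the other 11. Mean brightness of HF75 minus HFC was -0.53 log2 (SD 1.69, n = 6 weeks, exact two-sided sign-flip p = 0.625, where 0.03125 is the smallest p that 6 weeks allow). HF75 and HFC were scanned on the same day at weeks 12 and 15 only, and were never on the same slide. All 14 macrophage markers tested were well above background on the 6 HFC arrays and 13 or 14 of them on the HF75 arrays, and 10 to 13 of 13 adipocyte markers were too. The mean level of the macrophage list ran from 0.92 to 3.16 in HFC and from 0.99 to 2.62 in HF75.

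Averaged over the 6 weeks, no probe passed the test of HF75 against HFC. By limma, with week as a block and all 30 arrays of weeks 3 to 18 in the fit, 0 of 33780 probes (0%) passed an adjusted p of 0.05, and the smallest adjusted p was 0.9999. At an unadjusted p below 0.05 there were 661 probes (1.96%), of which 236 (0.699%) were higher in HF75 and 425 (1.26%) lower. The mean difference over weeks was above 0 for 54.2% of the probes and below 0 for 45.8%. Without week 3 there were 274 such probes, without week 9 there were 1455 and without week 12 there were 1160. The plain test per probe that the methods name gave 221 probes at that unadjusted level and 0 after Benjamini-Hochberg adjustment. The 3 probes of smallest p were those of Stx3, a syntaxin of vesicle fusion, Specc1l, a cytoskeletal protein, and the pseudogene Tubb4b-ps1. The Stx3 difference was 2.12 (SE 0.53), but only 4 of the 12 arrays had this probe well above background. The Specc1l difference was -2.01 (SE 0.50), and that of Tubb4b-ps1 was 0.74 (SE 0.19). Specc1l had no value at week 12, was 0.11 higher in HF75 at week 9 and was not well above background on HF75 W3. Tubb4b-ps1 was saturated on HFC W3 and HFC W9, so its differences there were at most 0.99 and 0.98.

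Single weeks were far apart, and in unlike directions. At week 3, 54.7% of tested probes were at least 2-fold apart, 11470 of them higher in HF75 (34% of those tested) and 7007 lower (20.8%). The share was 24.3% at week 6 (9.91% higher and 14.4% lower), 37.5% at week 9 (22.9% and 14.5%) and 32.7% at week 12 (16.1% and 16.6%). It was 23.3% at week 15 (5.8% and 17.5%) and 22.2% at week 18 (10.8% and 11.4%). All tested probes were counted, detected or not. Those well above background on both arrays numbered 18766 at week 3 and between 26070 and 29608 in the other weeks. These shares and splits depended on the scaling. At week 3, quantile normalization gave 7836 higher and 8256 lower probes, and normexp gave 4462 probes in all (13.2%). At week 15 there were 1957 higher and 5920 lower, against 2684 and 3253 with quantile normalization. With normexp, week 6 had 1230 higher and 16575 lower. The median number of such probes per week was 8783.5 for HF75 against HFC, 6339 for HF5, 7001 for HF20 and 7626 for LFC, but with normexp it was 5140, 18579, 14494 and 6019.5, so the comparisons have no settled order. The median difference of all tested probes was 0.42 at week 3, where HF75 was dimmest, and between -0.07 and 0.03 in the other weeks. Within a week there is no second array of either diet, so these are differences between 2 preparations, with no test.

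**Figure D1:**
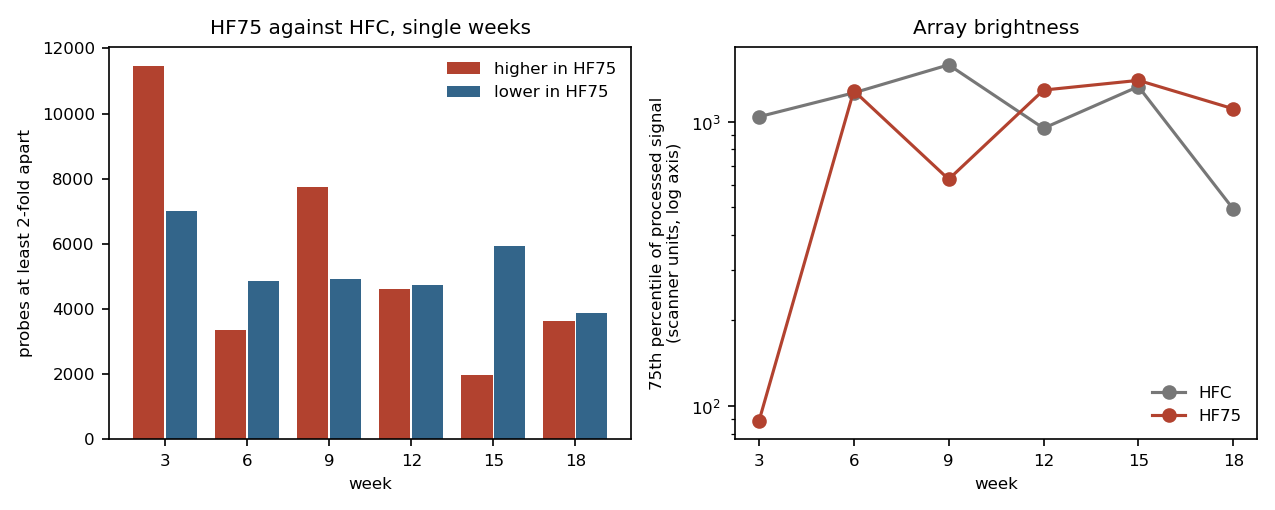
Left, number of tested probes at least 2-fold higher or lower in HF75 than in HFC at each week; right, 75th percentile of the processed signal of the 12 arrays in scanner units, on a log axis. With this scaling week 3 has the most probes in both directions, and it has the dimmest array (HF75, 88.4 scanner units).

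The 3 probes of largest difference each way, taken from probes that both arrays of the week detected well above background, included genes of epididymis, seminal vesicle, fat and neutrophils in different weeks. At week 3, E430016F16Rik was higher in HF75 by 12.02, the aldose reductase-like gene Akr1b7 by 8.19 and the bicarbonate transporter Slc4a7 by 7.69, while Gm2684 (at most -8.52) and 1700001L05Rik (at most -8.41), whose HFC spots were saturated, and Myo1e, a class I myosin (-8.35), were lower. At week 6, a Slc4a7 probe (6.20) and probes of the renin genes Ren2 (5.85) and Ren1 (5.68), whose near-identical sequences an array may not separate, were higher. Also at week 6, Ptgds, a prostaglandin D synthase (at most -9.83, with the HFC spot saturated), Adam7, a gene of the epididymis (-8.63), and Npy, neuropeptide Y (-8.33), were lower. The Slc4a7 probe had 2 companions on the array, one of which was lower in HF75 in all 6 weeks (mean -1.17), so the probes of this gene disagree.

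At week 9, the highest were Gm5099 (10.82), Dmrtb1, a germ line transcription factor (10.20), and Gm2813 (10.15), and the lowest were Cdsn, corneodesmosin (-6.66), Lep, the adipocyte hormone leptin (-6.59), and Lctl, a lactase-like protein (-6.37). Week 12 had Lctl (7.58), the carboxylesterase Ces1f (7.57) and Mogat1, an enzyme of diacylglycerol synthesis (6.88), at the top. Tnf (-7.15), the T cell receptor segment Trav8d-1 (-6.37) and Strip2 (-6.17) were at the bottom. Lctl was thus at opposite ends of 2 neighbouring times.

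At week 15, the neutrophil genes S100a8 (5.53) and Retnlg (5.26) and an immunoglobulin kappa segment (4.52) were highest, and the defensin Defb28 (-9.19), the dipeptidase Cndp2 (-7.90) and Gm5649 (-7.79) were lowest. At week 18, BC048679 (at least 10.85, with the HF75 spot saturated), Rnase12 (8.86) and Wfdc10 (7.92) were highest. The seminal vesicle genes Svs5 (at most -9.56, with the HFC spot saturated) and Pate4 (-9.07), and the nuclease Dnase2b (-7.01), were lowest at that time.

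Weeks 9 and 12 held the largest differences of cytokine and adipocyte genes, with opposite signs. At week 9, HFC and LFC were scanned on 1 day, and HF5, HF20 and HF75 on another. The share of probes at least 2-fold apart from HFC at week 9 was 37.5% for HF75, 47.9% for HF5, 43.9% for HF20 and 14.0% for LFC. The part of the scan day in these differences was not tested. Of 15 inflammatory macrophage genes tested, 14 were higher in HF75 at week 9 (median difference 5.27), while all 13 with a value at week 12 were lower (median -4.12). Tnf differed by 6.82 and then -7.15, and Cxcl2, a neutrophil chemokine, by 7.17 and then -4.85. The interleukin Il6 differed by 7.87 at week 9 and -2.85 at week 12. The level of Tnf ran from -3.91 to 3.29 in HFC (median 0.95) and from -3.86 to 2.91 in HF75 (median 0.49). The groups overlapped, and the low end of each came from 1 array, HFC W9 and HF75 W12. The mean difference of Tnf over the 6 weeks was -0.65 (SD 4.98), with a limma adjusted p of 0.9999.

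Immediate early genes, transcription factors and phosphatases induced within minutes by stress or growth signals, were at least 2-fold higher in HF75 at week 9 in 15 of 15 cases and at least 2-fold lower at week 12 in 15 of 15. Fos differed by 6.06 and then by -3.60, Egr1 by 5.17 and then -3.09, and Atf3 by 5.22 and then -4.41. In the other 4 weeks the median difference of the list lay between -0.26 and 0.13. The mean level of the list was 0.91 on HFC W9 against 4.60 to 5.08 on the other HFC arrays, and 1.99 on HF75 W12 against 4.65 to 4.98 on the other HF75 arrays. In LFC it was 0.54 at week 9 and 0.50 at week 12, and in HF5 and HF20 it was between 4.24 and 5.09 at those weeks. The arrays with low immediate early genes were therefore HFC W9, HF75 W12 and both LFC arrays.

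Adipocyte genes went the other way. At week 9, 11 of 13 were lower in HF75 (median -2.78), and at week 12, 12 of 13 were higher (median 3.72). Lep differed by -6.59 and then 6.18, Plin1, the lipid droplet coat protein, by -2.98 and then 5.31, and Adrb3, the fat cell adrenergic receptor, by -3.49 and then 5.28. The level of Lep ran from -3.57 to 5.01 in HFC (median -2.02) and from -5.50 to 3.86 in HF75 (median -3.33), and its highest values were on HFC W9 and HF75 W12. On each of these 2 arrays, 8 of the 13 adipocyte probes were saturated, so the differences of those probes are lower limits in size. The mean level of the adipocyte list was 4.67 on HFC W9 and 4.74 on HF75 W12, where the remaining arrays reached at most 1.62 in HFC and 2.38 in HF75.

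Lipogenic genes (fatty acid and triglyceride synthesis) had the signs of adipocyte genes. All 13 were lower at week 9 (median -2.33), and all 12 with a value were higher at week 12 (median 3.17). Acaca, acetyl-CoA carboxylase, differed by -4.06 and then 3.95, and Agpat2, an acyltransferase of triglyceride synthesis, by -4.13 and then 4.83. Cytokine, immediate early, adipocyte and lipogenic genes thus differed together in these 2 weeks, and the part of the adipocyte content in the cytokine differences was not tested. Over 28544 probes with all 6 differences, the differences of weeks 9 and 12, which share no array, had a Pearson r of -0.56. For the other 14 pairs of weeks it ran from -0.25 to 0.15. Probes share array, dye and cell mixture, and the r is a description.

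**Figure D2:**
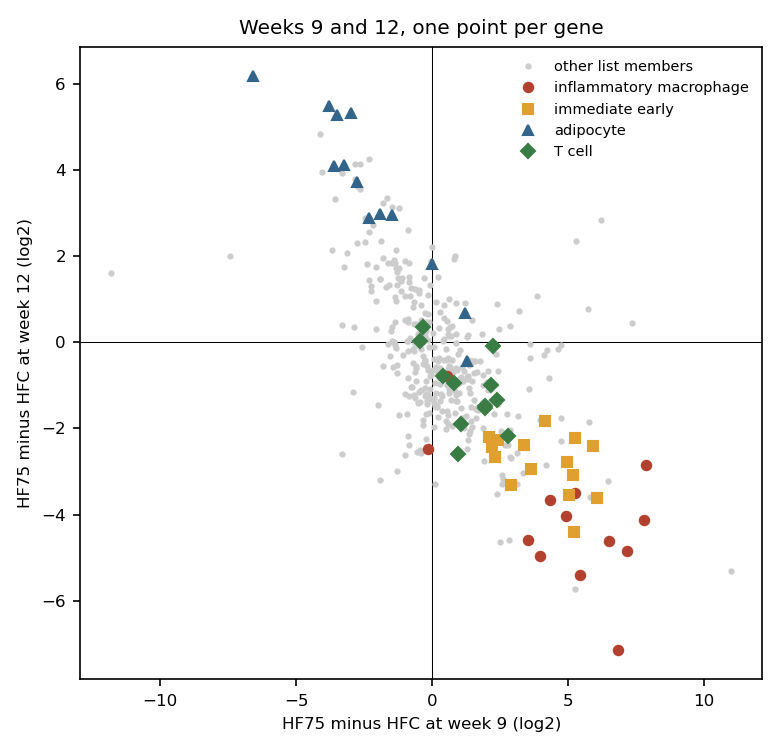
HF75 minus HFC at week 9 (x axis) against week 12 (y axis), both in log2, with 1 point per gene of the 40 lists. Inflammatory macrophage and immediate early genes lie at the lower right and adipocyte genes at the upper left; T cell genes lie nearer to 0.

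**Figure D3:**
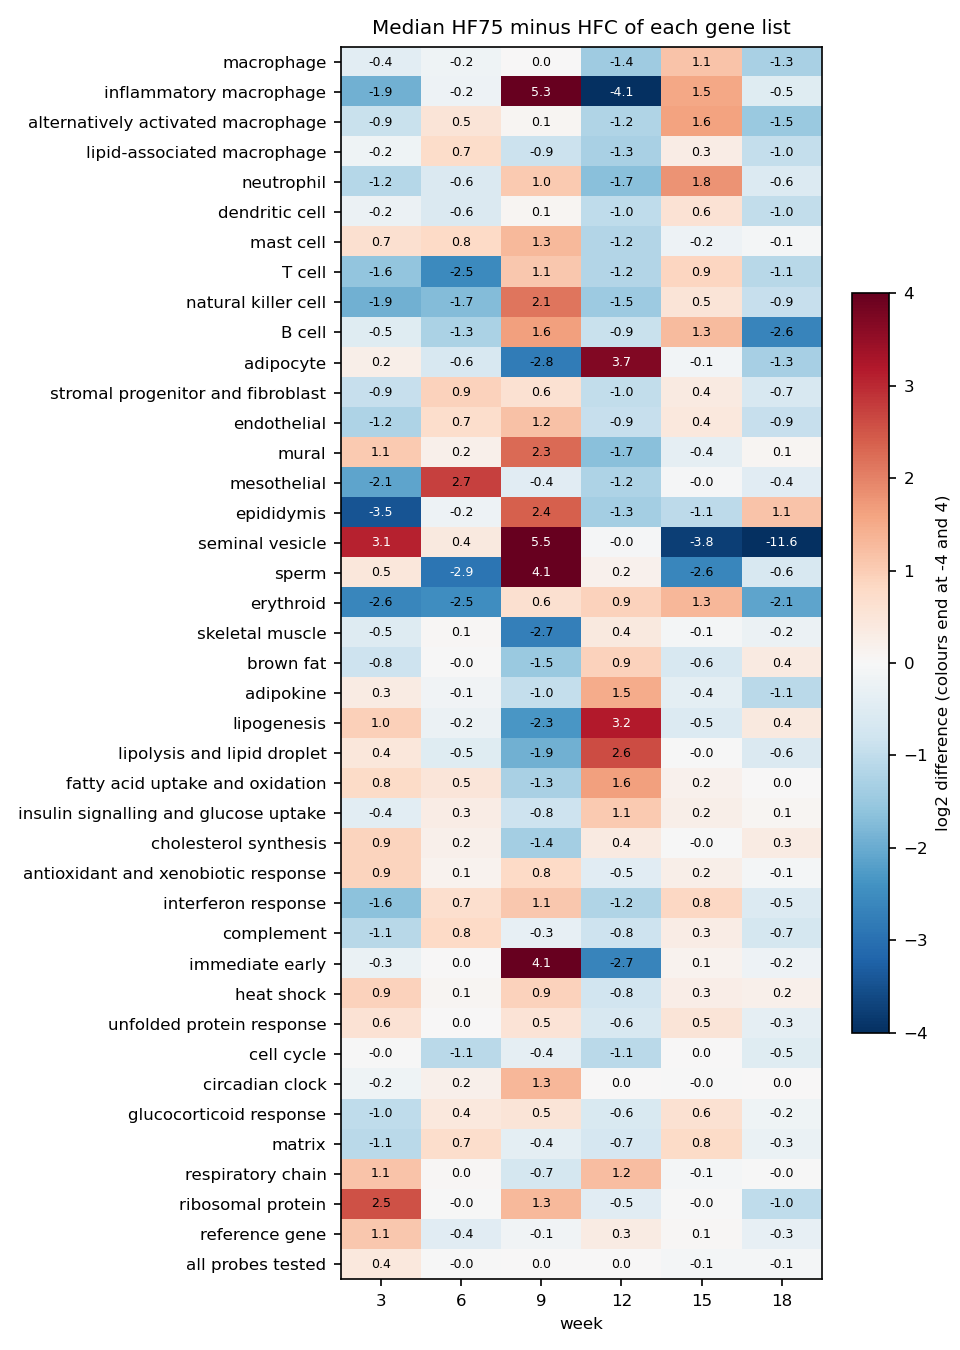
Median HF75 minus HFC of the genes of each of 40 lists, and of all tested probes, at each week (log2, printed in each cell). Colours end at -4 and 4, so the seminal vesicle value at week 18 (-11.55, a limit) is beyond the scale.

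At weeks 15 and 18 macrophage genes were on opposite sides. All 14 macrophage markers were higher in HF75 at week 15 (median 1.14), and 13 of 14 were lower at week 18 (median -1.30). The lysosomal glycoprotein Cd68 differed by 2.59 and then -1.47, and Adgre1, which encodes the F4/80 antigen, by 1.88 and then -1.26. Alternatively activated macrophage genes did so too, with 14 of 14 higher at week 15 (median 1.61) and 13 of 14 lower at week 18 (median -1.48). Among them, Chil3, a chitinase-like lectin, differed by 4.32 and -1.38, and Arg1, arginase, by 3.30 and -1.62. At week 12, 14 of 14 macrophage markers had been lower (median -1.43). Endothelial genes followed the same weeks, with 12 of 12 higher at week 15 and 12 of 12 lower at week 18 (medians 0.44 and -0.91).

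Over the 6 weeks, 11 of the 14 macrophage markers had a negative mean difference (median -0.32, against 0.04 for all tested probes). Leaving out a week moved that median between -0.53 and -0.06. The lowest member was Laptm5, a lysosomal membrane protein of leukocytes (mean -1.39, SD 2.15, n = 6 weeks), and the highest was the lysozyme gene Lyz2 (0.23, SD 0.82). No member passed the limma test, adjusted or not. Complement genes, many of them made by macrophages, had 9 of 14 members with a negative mean (median -0.24, and -0.11 without week 3), among them C1qa (-0.77), C1qb (-0.68) and the anaphylatoxin receptor C3ar1 (-0.83), while C5ar1 was at 0.80. Lipid-associated macrophage genes had 8 of 13 (median -0.15, and -0.08 without week 3), from Spp1, osteopontin (0.32), to Gpnmb (-0.90).

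Direction was the same in all 6 weeks for 354 of 28544 probes (1.24%), 189 of them higher in HF75 (0.662%) and 165 lower (0.578%). The corresponding counts against HFC were 963 of 30622 (3.14%) for HF5, 560 of 30618 (1.83%) for HF20 and 643 of 30623 (2.1%) for LFC, and all 4 comparisons used the same HFC arrays. Of the 415 list genes with all 6 differences, 7 (1.69%) kept 1 direction, a share near that of all probes. These 7 were Itgax, Top2a, Cenpe and Arntl, which were lower, and F3, Per2 and Tef, which were higher. Levels of the 6 HF75 and 6 HFC arrays did not overlap for 1 probe above HFC (0.0035%), that of the cap methyltransferase Cmtr2, and 3 below (0.0105%), those of Slc4a7, Get3 and Slc10a7, which were named after their values had been seen. Among the probes well above background on at least 9 of the 12 arrays, 135 were higher in all weeks and 153 lower, and 98 of the 153 lower probes (64.1%) were not well above background on the dim HF75 W3 array, against 18 of the 135 higher ones (13.3%).

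Itgax, the CD11c integrin chain, had levels from -2.01 to 0.69 in HFC (median -0.61) and from -3.21 to -0.63 in HF75 (median -2.08). The groups overlapped, but HF75 was the lower of the pair each week, by between 0.17 at week 9 and 2.47 at week 12. The mean difference was -1.29 (SD 0.98, n = 6 weeks), which is 2.45-fold lower, with a limma SE of 0.46 and an adjusted p of 0.9999. On HF75 W3 the probe was not well above background, and without week 3 the mean was -1.06. In the weeks scanned on the same day it was -2.47 (week 12) and -0.82 (week 15). Itgax was the only 1 of the 15 inflammatory macrophage genes tested that had 1 direction in all weeks, and its differences at weeks 9 and 12 had the same sign where those of Tnf, Il6 and Ccl2 were opposite.

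Cx3cr1 had levels from -3.47 to -0.86 in HFC (median -2.50) and from -5.51 to -2.34 in HF75 (median -3.93). Its difference was -4.65 at week 3, where the HF75 probe was not well above background, and between -1.20 and -0.60 in the other weeks. The mean was -1.44 (SD 1.58, n = 6 weeks), with a limma SE of 0.52 and an adjusted p of 0.9999, and without week 3 it was -0.80. A second Cx3cr1 probe, well above background on 3 of the 12 arrays, had a mean of 0.06. The means against HFC in the other doses were -0.57 for HF5 and -0.28 for HF20 with the first probe, and for Itgax they were -0.44 and -0.17. In LFC, which had no formulation, the means against the same HFC arrays were -0.85 for Cx3cr1 and -0.95 for Itgax.

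Mmp8, the neutrophil collagenase, had the largest mean of the genes with positive differences in all weeks, among those well above background on at least 9 of the 12 arrays, a condition that Stx3 did not meet. Its levels ran from -7.37 to -1.82 in HFC (median -3.90) and from -4.72 to -0.57 in HF75 (median -1.96). The difference was 6.79 at week 15 and 3.58 at week 3, and between 0.25 and 1.26 in the other 4 weeks. The mean of 2.09 (SD 2.63, limma SE 0.85, adjusted p 0.9999) therefore rested mainly on those 2 weeks. On HFC W15 the Mmp8 probe was not well above background, so its difference at week 15 has no sure size. At week 15, 9 of 11 neutrophil genes were higher in HF75 (median 1.81), among them S100a8 (5.53), S100a9 (4.24) and the chemokine receptor Cxcr2 (4.72). Cxcr2 too was not well above background on HFC W15. Over all weeks 6 of 11 neutrophil genes had a positive mean (median 0.02, and 0.52 without week 3). Mmp8 was also higher than HFC on average in HF5 (1.71, in 6 of 6 weeks) and HF20 (1.30, in 4 of 6).

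The other 9 genes of largest mean that were higher in all weeks under that condition were Rpl35a-ps5, a ribosomal pseudogene (1.63, with spots saturated on 6 of the 12 arrays), Vmn1r46, a vomeronasal receptor (1.30), Spdya, an activator of cyclin-dependent kinases (1.29), Rab3b, a secretory GTPase (1.20), 4930509E16Rik (1.04), the Mediator subunit Med13 (1.03), Dennd5b (0.98), the potassium channel Kcnt1 (0.91) and B330016D10Rik (0.88). Spdya was the steadiest of those at or above 1.20, with differences from 0.34 to 2.38 (SD 0.74). Its levels ran from -5.64 to -3.41 in HFC and from -3.86 to -2.15 in HF75, and HF5 (1.45) and HF20 (1.23) were above HFC by a like mean. The mean of Med13 came largely from week 18 (3.96), and its 3 other probes had means between -0.51 and 0.32. Some of these genes had like means in other diets against the same HFC arrays. In HF5, HF20 and LFC they were 1.82, 1.61 and 1.18 for Rpl35a-ps5, and 1.27, 1.67 and 1.17 for Vmn1r46. For Med13 they were 0.82, 0.76 and 1.07. Rab3b (0.29, 1.13 and -0.24) and B330016D10Rik (0.22, -0.07 and 0.27) were less alike.

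Under that condition the other 8 genes of lowest mean among those lower in all weeks were the ferritin-like Fthl17e (-2.09), Lalba, alpha-lactalbumin (-1.61), Clpsl2, a colipase-like gene (-1.48), Eea1, an early endosome tether (-1.45), the phosphatase Ppm1g (-1.40), Gm12680 (-1.32), Cox6a2, the muscle isoform of a cytochrome oxidase subunit (-1.30), and Ptpn11, the phosphatase SHP2 (-1.28). Ppm1g was the only 1 of the 10 lower genes that was well above background on HF75 W3, and its difference there was at most -6.69, with the HFC spot saturated, against -1.01 to -0.03 in the other weeks. Fthl17e had levels from -2.40 to -0.36 in HFC and from -5.45 to -0.90 in HF75, and its mean without week 3 was -1.83. Other means were smaller in size without that week, at -0.34 for Ppm1g, -0.68 for Gm12680, -0.72 for Ptpn11, -0.76 for Eea1 and -0.81 for Clpsl2. The 4 other Eea1 probes had means from -0.67 to -0.01, and the 2 other Ptpn11 probes had means of 0.34 and -1.08. Against the same HFC arrays, Ppm1g had means of -1.45 in HF5, -1.04 in HF20 and -1.43 in LFC, like its mean in HF75. Those of Fthl17e were -1.76, -0.36 and -1.71, and those of the first Eea1 probe were -0.14, -0.24 and -0.45.

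**Figure D4:**
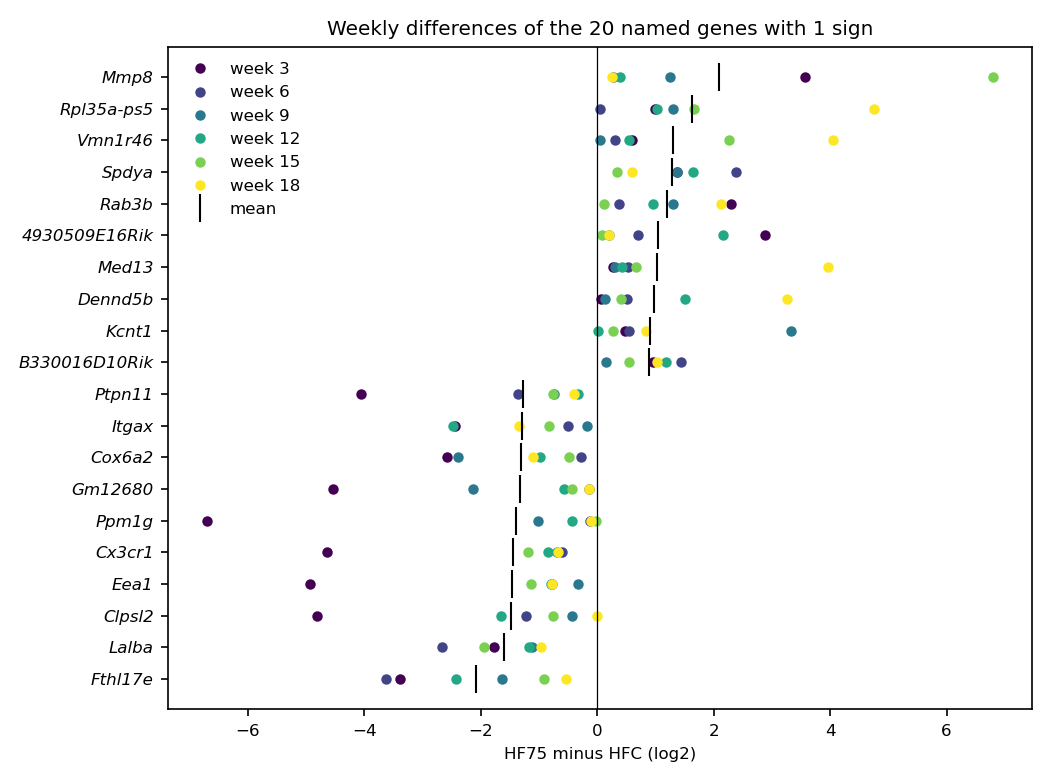
HF75 minus HFC (log2) at each of the 6 weeks (points) and its mean (bar) for the 10 genes of largest mean difference in each direction, among those with 1 sign in all weeks and a probe well above background on at least 9 of the 12 arrays. Mmp8 is drawn out by week 15 and most of the lower genes by week 3.

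Lymphocyte genes were mostly lower in HF75. All 13 T cell genes had a negative mean (median -0.65), as had 8 of 9 natural killer cell genes (median -0.55) and 7 of 9 B cell genes (median -0.46), against 45.8% of all tested probes with a negative mean. At week 6 all 13 T cell genes were lower (median -2.54), including the T cell receptor subunit Cd3d (-2.58) and the CD8 chains Cd8a (-3.52) and Cd8b1 (-3.53). At week 9, 10 of 13 were higher (median 1.08), and at week 15, 11 of 13 (median 0.85), so the direction was not that of each week. Levels of Cd8a ran from -3.98 to 2.45 in HFC (median -1.78) and from -4.43 to -1.07 in HF75 (median -2.51), and its mean difference was -1.13 (SD 1.63, limma adjusted p 0.9999). The high end of HFC was week 6, where the mean level of the T cell list was 1.20 on the HFC array, 0.54 for HF5, 0.10 for HF20 and -1.05 for HF75.

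B cell genes were lowest at week 18, where 9 of 9 were below HFC (median -2.63), with Ms4a1, which encodes CD20, at -4.0. They were higher in 9 of 9 cases at week 9 (median 1.65). Natural killer genes included Prf1, perforin (mean -1.15), and Nkg7, a granule protein (-0.83), and all 9 were lower at week 6 and higher at weeks 9 and 15. On HF75 W3, 4 of the 9 natural killer, 4 of the 13 T cell and 1 of the 9 B cell genes were well above background, so their differences at week 3 have no sure size. Leaving out a week moved the T cell median between -1.15 and -0.43, the natural killer median between -1.10 and -0.22 and the B cell median between -0.94 and 0.09. Mast cell genes had the opposite sign, with 7 of 7 means positive (median 0.25), from the high-affinity IgE receptor chain Fcer1a (0.08) to the carboxypeptidase Cpa3 (0.51). No lymphocyte or mast cell gene had an unadjusted p below 0.05.

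Circadian clock genes had 12 of 16 positive means (median 0.33). The clock is a feedback loop in which Arntl (also called Bmal1) and Clock switch on genes with E-box sequences, among them the period and cryptochrome genes that later block them. Proteins of the ROR and REV-ERB families act on the Arntl promoter in turn. Per2, a period gene, had levels from -3.51 to -0.41 in HFC (median -1.0) and from -1.69 to -0.08 in HF75 (median -0.27), and was higher in HF75 each week, by 0.20 to 1.83. Its mean was 0.80 (SD 0.55, limma SE 0.46, adjusted p 0.9999), against 0.05 for HF5 and 0.02 for HF20, although a second Per2 probe had a mean of -0.05.

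Arntl was lower each week, by 0.12 at week 12 up to 2.58 at week 9. Its levels ran from -2.12 to -0.03 in HFC (median -1.41) and from -2.82 to -0.90 in HF75 (median -2.31). The mean was -0.86 (SD 0.90, limma SE 0.39, adjusted p 0.9999). Tef, an output factor of the clock, was higher each week with 1 probe (mean 0.52, SD 0.50), and its 2 other probes had means of 0.37 and 0.10. Nr1d1, which encodes REV-ERB alpha, was at -0.39 and Dbp, another output factor, at 0.62. At week 9 the differences were widest, with 12 of 16 clock genes higher, Ciart by 4.62 and Bhlhe41 by 4.63, and in the other weeks the median of the list was between -0.18 and 0.21. Week 9 also held the largest differences of Per2, Arntl and Tef. Without weeks 9 and 12 the means were 0.69 for the first Per2 probe, -0.62 for Arntl and 0.30 for the Tef probe higher each week. Hours of tissue collection were not given in the sources used here.

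Promoter windows of the clock genes were searched for both motifs of this loop. In the RefSeq windows of GRCm38.p6, from 250 bases before to 50 after the start, the E-box CACGTG was found for 5 of the 15 clock genes that had a window (Per1, Cry1, Tef, Ciart and Bhlhe41) and for 8.09% of 27025 genes. It reads the same on both strands. The ROR response element, searched on both strands, was found for 1 of the 15, Arntl, and for 0.459% of the 27025 genes (0.384% of all 32851 windows). A match is a description of the letters. Another Tef window (chr15:81802423-81802722, plus strand) also held the E-box and is not shown. A window of Tef (chr15:81811164-81811463, plus strand) and a window of Arntl (chr7:113207261-113207560, plus strand) are shown with the motif in capitals.
Tef: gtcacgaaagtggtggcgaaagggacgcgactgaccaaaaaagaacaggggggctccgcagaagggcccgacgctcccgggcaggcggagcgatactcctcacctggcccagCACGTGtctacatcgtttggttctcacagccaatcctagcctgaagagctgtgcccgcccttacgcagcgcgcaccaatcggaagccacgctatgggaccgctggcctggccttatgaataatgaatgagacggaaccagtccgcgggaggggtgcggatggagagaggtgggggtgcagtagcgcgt
Arntl: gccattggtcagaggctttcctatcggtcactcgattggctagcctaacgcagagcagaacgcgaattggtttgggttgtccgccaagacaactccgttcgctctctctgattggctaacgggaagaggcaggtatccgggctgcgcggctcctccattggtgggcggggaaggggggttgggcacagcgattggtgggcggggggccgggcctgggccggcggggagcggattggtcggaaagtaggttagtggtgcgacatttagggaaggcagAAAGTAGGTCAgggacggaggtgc

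**Figure D5:**
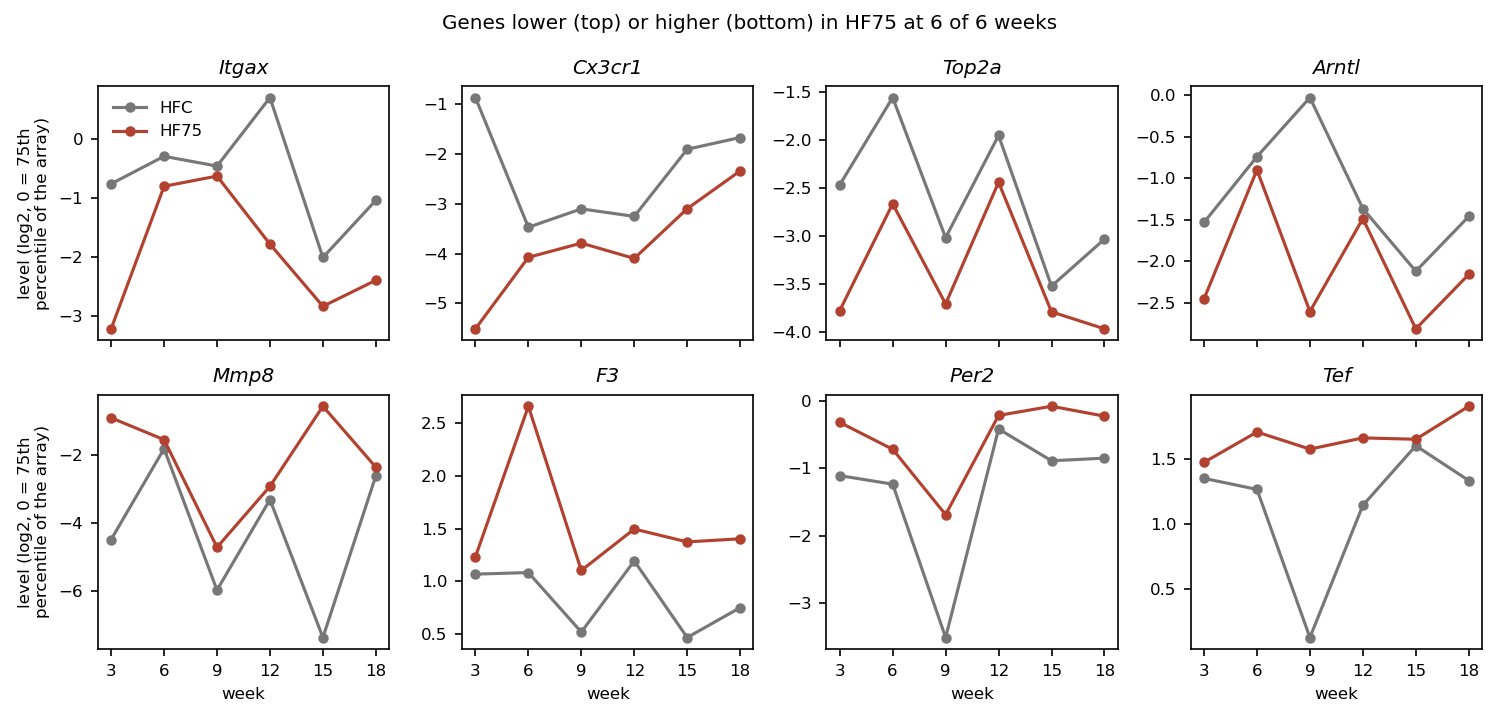
Levels (log2, 0 at the 75th percentile of the array) of 4 genes lower in HF75 in all weeks (top) and 4 higher in all weeks (bottom), with HFC in grey and HF75 in red and 1 array per point. The lines keep their order in each panel, while their distance differs from week to week.

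Cell cycle genes were lower on average, with 12 of 14 negative means (median -0.35), and that median kept its sign in 10 of 10 settings. These settings reuse the same arrays, and other lists, such as the T cell and complement lists, kept their sign in 10 of 10 too. Top2a, the DNA topoisomerase of dividing cells, had levels from -3.52 to -1.55 in HFC (median -2.74) and from -3.96 to -2.44 in HF75 (median -3.74), and was lower in each week, by 0.27 to 1.11 apart from week 3 (1.31), when the HF75 probe was not well above background. Its mean was -0.80 (SD 0.39, limma adjusted p 0.9999), or -0.70 without week 3, and that of a second Top2a probe, well above background on 8 of the 12 arrays, was -0.53. With the first probe, the Top2a means against HFC were -0.45 in HF5, -0.39 in HF20 and -1.15 in LFC. Means of Birc5, survivin (-0.73), Mki67, the Ki-67 antigen (-0.67), and Ccna2, cyclin A2 (-0.63), were negative, while Kif11, a spindle motor (0.59), and Pcna, the sliding clamp of replication (0.25), were positive. At week 6, 13 of 14 were below HFC (median -1.09), and at week 12, 12 of 13 (median -1.08). At weeks 3 and 15, 7 were higher and 7 lower (medians -0.01 and 0.002).

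Antioxidant and xenobiotic genes had 16 of 19 positive means (median 0.23, and 0.12 without week 3). Cyp1a1, the cytochrome P450 that the aryl hydrocarbon receptor induces, had the highest, at 1.56 (SD 1.77, limma SE 0.67, adjusted p 0.9999). Its levels ran from -8.34 to -2.92 in HFC (median -5.79) and from -7.12 to -2.42 in HF75 (median -3.96), it was well above background on 7 of the 12 arrays, and at week 12 HF75 was the lower, by 0.82. Nqo1, a quinone reductase (0.91), Hmox1, heme oxygenase (0.81), and Srxn1, sulfiredoxin (0.69), were also above 0, and the glutathione synthesis genes Gclc (-0.57) and Gclm (-0.63) below it. Hmox1 was higher in HF75 by 1.62 to 2.58 at weeks 6, 12, 15 and 18, by 0.80 at week 9, and lower at week 3 (-3.83).

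Among stromal genes, F3, tissue factor, was higher in HF75 each week, by 0.16 to 1.57. Its levels ran from 0.47 to 1.19 in HFC (median 0.91) and from 1.10 to 2.65 in HF75 (median 1.39), so that they overlapped only a little. The mean was 0.70 (SD 0.50, limma SE 0.31, adjusted p 0.9999), and a second F3 probe gave 0.68 with the same sign in each week. The other 13 stromal genes had means from -0.65 (Thy1) to 0.12 (Pdgfrb), and matrix genes had 13 of 16 negative means (median -0.24, but -0.01 without week 3), from Fn1, fibronectin (-0.74), to Tnc, tenascin (0.75). F3 means in HF5 and HF20 were 0.21 and 0.16 above HFC.

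In energy metabolism, fatty acid oxidation had 11 of 13 positive means (median 0.24, and 0.10 without week 3), and the lipoprotein lipase Lpl was lowest (-0.27). Respiratory chain genes had 13 of 14 (median 0.23), and the median was 0.07 without week 3. Both lists took the sign of adipocyte genes at weeks 9 (medians -1.30 and -0.70) and 12 (1.64 and 1.24). Ribosomal protein genes had 11 of 12 positive means (median 0.43), but without week 3 the median was -0.04, and 7 to 10 of the 12 probes were saturated on every array except HF75 W3. The heat shock list had 8 of 9 positive means (median 0.20), with Dnajb1, a co-chaperone, highest (0.84).

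Other lists stayed closer to 0 over the 6 weeks, with larger values of 1 week. Means of the interferon response were negative for 9 of 13 genes (median -0.19), but the median was 0.32 without week 3, and all 13 were above HFC at week 6 (median 0.69). Adipocyte means were negative for 7 of 13 (median -0.13), from Lep (-1.29) to Slc2a4, the insulin-regulated glucose transporter (0.41), and the inflammatory macrophage median was -0.06, or 0.31 without week 3. Mesothelial genes, of the lining of the fat pad, had a median of -0.11 (0.21 without week 3), with 2.73 at week 6 and -2.09 at week 3. Their mean level was -4.54 on HFC W6 against 0.56 to 2.88 on the other HFC arrays.

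Transcripts of neighbouring reproductive tissue were on the arrays and differed from week to week. Seminal vesicle genes had a median difference of 5.52 at week 9 and -11.55 at week 18, when their mean level was 5.99 on the HFC array and -5.66 on the HF75 array. Both medians are limits, since 2 of the 4 probes were not well above background on HFC W9, and at week 18 there were 2 saturated on HFC and 2 not well above background on HF75. The 4 genes tested were Svs3a, Svs5, Svs6 and Pate4. Sperm genes, such as the protamines Prm1 and Prm2, were lower in 11 of 11 cases at weeks 6 (median -2.93) and 15 (-2.62) and higher in 11 of 11 at week 9 (4.13). Epididymis genes had medians from -3.46 at week 3 to 2.38 at week 9, and 11 of 13 had a negative mean (median -0.58, and -0.30 without week 3). On HFC W9, 3 of the 11 sperm and 3 of the 13 epididymis probes were well above background. So were 5 of the 11 sperm probes on HF75 W6 and 6 of the 13 epididymis probes on HF75 W3. The medians of those weeks therefore have no sure size. The part of these reproductive tissue genes in the other lists was not tested.

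Skeletal muscle genes had 10 of 10 negative means (median -0.74), with Myh4, a fast myosin, at -1.99 and the muscle creatine kinase Ckm at -1.20, but the list stood at -2.73 at week 9 and between -0.51 and 0.39 in the other weeks. The mean level of this list ran from -2.84 to 0.91 in HFC and from -3.10 to 1.14 in HF75. Erythroid genes were lower in 4 of 4 cases at weeks 3, 6 and 18. They were higher in 4 of 4 at weeks 9 (median 0.64) and 15 (1.34) and in 3 of 3 at week 12 (0.92). Their 6-week median was -0.52, or -0.29 without week 3.

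Against the lower doses, HF75 minus the mean of HF5 and HF20 gave 0 of 33780 probes (0%) at an adjusted p of 0.05 by limma, with a smallest adjusted p of 0.865. At an unadjusted p below 0.05 there were 1885 (5.58%), 476 of them higher (1.41%) and 1409 lower (4.17%). Without week 3 there were 1008. The 3 probes of smallest p were LOC665084 (-2.21, SE 0.52), Fbll1, a fibrillarin-like gene (-1.47, SE 0.35), and the histone variant H2al2c (-2.93, SE 0.72), which 2, 8 and 6 of the 12 HF75 and HFC arrays detected well above background. Itgax was lower than in the lower doses by a mean of -0.99 (SE 0.40) and Cx3cr1 by -1.02 (SE 0.45), while Mmp8 was at 0.58 (SE 0.73), Per2 at 0.76 and Arntl at -0.66, all with an adjusted p that missed the threshold.

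The change of HF75 minus HFC with week passed for 0 of 31105 probes (0%) by limma, and the smallest adjusted p was 0.996. There were 1139 probes (3.66%) at an unadjusted p below 0.05, of which 485 had a slope above 0 (1.56%) and 654 below (2.1%). Their number was 456 without week 3, 2300 without week 6, 735 without week 12 and 638 without week 15. The lowest p-values were those of Smpx, a small muscle protein (-0.76 per week, SE 0.09), Nmu, neuromedin U (-0.46, SE 0.07), and LOC100047768 (-0.38, SE 0.06). Smpx differed by 5.03 at week 3, 0.31 at week 6, -1.12 at week 9, -6.11 at week 15 and -6.68 at week 18, and had no usable value at week 12. Nmu and LOC100047768 were each well above background on 4 of the 12 arrays.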

How the data were processed

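Messenger RNA was measured with Cy3 on one-colour Agilent arrays. Per the file headers, the deposited intensity values are Feature Extraction processed signals (version 10.5.1.1 in the headers, 9.1 in the submitters' processing notes), background-subtracted but not normalised between arrays. The authors also deposited log2 values relative to LFC, which were used only as a check. From 43803 non-control spots on each array, outlier spots were left out, the 75th percentile was subtracted on the log2 scale and spots of the 40628 probes were averaged. At week 12, 5133 tested probes had no difference after that step. Saturated spots were kept. Symbols come from the RefSeq table of GRCm38.p6, by accession for 69.3% of probes. Dose was taken from title and source name, since the diet label of 4 arrays of HF5 and HF20 names the other dose.

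Probes well above background on a share of 0.5 of the arrays of at least 1 diet were tested with limma 3.58.1 in R 4.3.3 (two-sided, Benjamini-Hochberg, threshold 0.05), with week as a block because each array was compared with that of its own week. Figures were drawn with matplotlib 3.10.9. Alternatives were normexp background correction (offset 50), quantile normalization, filters, leaving out each week, blocks, covariates and the methods' t-test. Named genes were the 3 of smallest p of each fit, the 10 of largest mean in each direction with 1 sign in 6 of 6 weeks and at least 9 of 12 arrays above background, the 3 of largest difference each way per week, and list members: of each list the first, highest and lowest, and any macrophage, inflammatory or adipocyte gene. One list member that this rule names is not reported here. Other list members were named as examples after their values had been seen. A list uses 1 probe per gene, that of highest mean level. The gene groups and the 40 lists of 480 genes were chosen with earlier results of these data known. The limma fit of HF75 minus HFC was also run on simulated data with known differences. No such check was made for the comparison with the lower doses or for the change with week. The number of arrays limits the precision.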

Additional observations from a re-analysis of the deposited data

Results flagged for a closer look

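Among 2 brightness groups, 80 list scores and 52 gene groups of 6 arrays, 1, 17 and 7 had an array far from the other 5. The cut gives about 1 in 20 by chance only for independent groups that were not chosen by their values. Here the genes were chosen by their values and the lists share arrays and genes, so these counts cannot be set against chance. HFC W9 stood apart in the mean level of 10 lists, namely adipocyte (4.67), lipogenesis (3.51), lipolysis and lipid droplet (3.69), fatty acid oxidation (2.90), insulin signalling (1.45), cholesterol synthesis (0.947) and respiratory chain (4.47) on the high side, and immediate early (0.908), mural (1.68) and heat shock (3.19) on the low side. HF75 W12 stood apart in 4 lists, immediate early (1.99) and mural (2.30) on the low side and brown fat (-0.352) and fatty acid oxidation (2.88) on the high side. HFC W6 was far below in the mesothelial list (-4.54), HFC W18 far above in the seminal vesicle list (5.99) and HF75 W6 far above in the skeletal muscle list (1.14).

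HF75 W3 was dim, with a log2 75th percentile of 6.47, and stood low in Eea1 (-4.92) and Ptpn11 (-4.76). Of the genes with 1 direction in all weeks, HFC was far from its other weeks for Med13 at week 18 (-5.93), Kcnt1 at week 9 (-6.64), Clpsl2 at week 3 (-0.0594), Ppm1g at week 3 (6.01) and Gm12680 at week 6 (-6.15).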

How the results depend on the processing

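No alternative gave a probe at an adjusted p of 0.05 in any of the 54 fits. The 661 probes of HF75 minus HFC at an unadjusted p below 0.05 became 129 with normexp, 282 with the filter on every array, 415 with the 12 arrays alone, 1466 without weeks 9 and 12 and 221 with the methods' t-test, of which 72 were also 2-fold apart. Without the replicate block (week) there were 310, so the pairing by week raised the count. Leaving out a week gave 274 (week 3) to 1455 (week 9), and 1160 without week 12. The split into higher and lower was 217 and 639 with quantile normalization. Against the lower doses the 1885 became 1002 with normexp (678 higher, 324 lower), 619 with every array and 1066 without the replicate block, and 1008 (week 3) to 2226 leaving out a week. With brightness as a covariate there were 2500 (625 higher, 1875 lower). The smallest adjusted p of that limma fit was 0.0893, nearer to the threshold than the 0.865 of the main fit. The 1139 probes of a change with week became 488 with normexp, 3333 with no filter, 694 with every array and 448 with brightness as a covariate, and 456 (week 3) to 2300 (week 6) leaving out a week.

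The 354 probes with 1 sign became 129 with normexp, 119 with every array and 2923 without weeks 9 and 12, where 4 weeks are left, and 714 to 1546 with 5 weeks. The median of 8783.5 probes 2-fold apart was 5140 with normexp and 2665 with every array. The brightness difference was 0.0754 without week 3, against -0.871 at the other end. With normexp, 4930509E16Rik was at -0.118 and B330016D10Rik at -0.0106, below 0, while 519 other values of the named genes kept their sign and their side of the threshold. The clock median was -0.01 with normexp. The causes were not tested. Dimness of HF75 W3 and the outlier spots of week 12 limit what can be measured there, and 1 array per diet and week limits everything else.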
